A study of Homo sapiens with 3 samples.

Results

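Processed pseudogenes were compared in RNA sequencing libraries of cells labelled HCT116. The 300 described here were chosen by their measured level, as the autosomal genes of this biotype with the highest mean FPKM over the 3 libraries, out of 9348 processed pseudogenes outside the chromosomes X, Y and MT and of 58735 genes in all. FPKM is the number of fragments on a gene scaled by its length and by a size set for the library. Since the level itself chose these genes, their high level is a description and not a result. A processed pseudogene is a copy of a messenger RNA that the reverse transcriptase of LINE-1 elements wrote back into the genome. It usually lacks introns and the promoter of its parent gene, and abundant housekeeping mRNAs of the germ line, those of ribosomal proteins above all, have left many such copies. Most copies carry mutations that end the reading frame, but some are transcribed, often from a promoter nearby. A copy that is close in sequence to its parent shares much of the sequence of short reads, so that reads of both can be exchanged when they are assigned.

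The 3 groups were cells overexpressing ZEB1 K80R, cells overexpressing wild-type ZEB1, and empty vector cells. ZEB1, a transcription factor with zinc fingers, is known as a repressor of epithelial genes, and K80R names a form with a lysine changed to an arginine. HCT116 is an established human colorectal carcinoma line. That the cells are of this line rests on their label and was not tested. All cultures were grown in DMEM with serum, all carry the treatment label control, and each group had 1 library, called the K80R, the wild-type and the empty vector library here. With 1 library per group no test was possible. Brackets hold the exact 95% counting interval of an FPKM ratio, which covers counting error only. It takes the reads of both libraries as plain counts. Low counts are scarce in the empty vector library, as given below, so for ratios to that library it may not hold. In such bulk RNA fewer cells of a kind and less RNA per cell cannot be told apart.

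The table held 13479517 reads for the K80R, 14322537 for the wild-type and 14764535 for the empty vector library. The library sizes that the FPKM imply were 13321338 for the K80R, 13795840 for the wild-type and 15886593 for the empty vector library. These sizes are not the sums of reads. ZEB1 had an FPKM of 10.3 in the K80R, 9.83 in the wild-type and 5.66 in the empty vector library. Genes that define colon epithelium were largely absent, with 9 of 13 listed markers at 0 reads in every library, among them CDH1, EPCAM, CDX2 and VIL1, and KRT8 and KRT18 were the 2 with a mean FPKM of at least 1. All 4 leukocyte markers lay below an FPKM of 1, and both endothelial ones did too. Of 5 mesenchymal genes, VIM had an FPKM of 436 in the K80R, 546 in the wild-type and 283 in the empty vector library, and FN1 and PDGFRB were likewise lowest in the empty vector library. COL1A1 and COL1A2 were highest there, at an FPKM of 1.7 and 0.559. Mitochondrial genes took 9.75% of reads in the K80R, 7.77% in the wild-type and 1.29% in the empty vector library, and reads were found on 24325 genes in the K80R, 23457 in the wild-type and 18928 in the empty vector library. Low counts are scarce in the empty vector library, as given below, so these numbers of genes are not directly comparable. The part of all these differences in the results below was not tested.

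The sequences of several copies show what they share with their parents. They come from the GENCODE release 29 transcripts (GRCh38), as do the parents' coding stretches set beside them. RPS28P7, on chromosome 11 from 82689559 to 82689768 (plus strand), had the highest level of the 300 and is identical to the coding sequence of RPS28, a protein of the small ribosomal subunit. RPL39P3, on chromosome 6 from 73373108 to 73373263 (minus strand), is identical to the coding sequence of RPL39, a protein of the large subunit. Capitals mark the start and the stop codon of the open frame, which runs over 69 codons in RPS28P7 and 51 in RPL39P3 before the stop.
RPS28P7: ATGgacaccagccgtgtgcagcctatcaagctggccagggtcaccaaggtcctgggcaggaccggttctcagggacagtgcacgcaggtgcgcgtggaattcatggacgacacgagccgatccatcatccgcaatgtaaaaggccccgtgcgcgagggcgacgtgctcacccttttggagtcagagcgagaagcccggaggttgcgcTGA
RPL39P3: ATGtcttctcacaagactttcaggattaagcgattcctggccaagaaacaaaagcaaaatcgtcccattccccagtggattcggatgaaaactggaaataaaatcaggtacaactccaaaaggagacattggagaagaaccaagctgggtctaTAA

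Among the copies that differ from their parents, AL450405.1, on chromosome 6 from 117998975 to 117999448 (plus strand), is a copy of RPL29, another protein of the large subunit. Its 474 bases aligned to 480 bases of RPL29 with 7 mismatches and 6 gap bases, and the stretch that holds all 13 differences is shown, bases 149 to 442 of the copy. It is shown because its level stood further from that in the empty vector library than the level of RPL29 did. Capitals mark the bases that differ between a copy and its parent or that stand opposite a gap.
AL450405.1: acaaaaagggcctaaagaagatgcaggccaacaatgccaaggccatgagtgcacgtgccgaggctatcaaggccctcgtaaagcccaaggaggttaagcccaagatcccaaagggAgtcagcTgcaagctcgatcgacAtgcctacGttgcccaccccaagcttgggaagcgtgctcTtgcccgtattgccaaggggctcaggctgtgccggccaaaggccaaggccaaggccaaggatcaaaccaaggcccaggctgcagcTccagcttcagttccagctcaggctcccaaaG
RPL29: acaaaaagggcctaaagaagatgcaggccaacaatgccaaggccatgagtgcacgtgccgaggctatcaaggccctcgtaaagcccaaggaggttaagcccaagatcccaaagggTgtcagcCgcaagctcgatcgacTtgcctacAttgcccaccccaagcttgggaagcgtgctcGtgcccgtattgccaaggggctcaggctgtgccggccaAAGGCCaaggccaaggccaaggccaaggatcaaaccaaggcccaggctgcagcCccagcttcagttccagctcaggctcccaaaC

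RPL21P10 stands for the diverged copies. It lies on chromosome 14 from 77683202 to 77683989 (minus strand), and its annotated sequence of 490 bases aligned to 483 bases of RPL21, a protein of the large subunit, with 37 mismatches and 23 gap bases. A stop followed after 11 codons in the copy, against 160 codons in RPL21. Bases 64 to 355 of the copy are shown, a stretch with 45 of the differences. Capitals mark the same differences as above.
RPL21P10: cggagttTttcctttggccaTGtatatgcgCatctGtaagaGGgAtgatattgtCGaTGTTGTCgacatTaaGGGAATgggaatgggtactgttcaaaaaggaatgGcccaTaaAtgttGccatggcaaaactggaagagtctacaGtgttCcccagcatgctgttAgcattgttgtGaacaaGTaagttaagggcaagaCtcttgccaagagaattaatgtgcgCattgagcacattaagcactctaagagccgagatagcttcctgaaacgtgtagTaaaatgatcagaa
RPL21: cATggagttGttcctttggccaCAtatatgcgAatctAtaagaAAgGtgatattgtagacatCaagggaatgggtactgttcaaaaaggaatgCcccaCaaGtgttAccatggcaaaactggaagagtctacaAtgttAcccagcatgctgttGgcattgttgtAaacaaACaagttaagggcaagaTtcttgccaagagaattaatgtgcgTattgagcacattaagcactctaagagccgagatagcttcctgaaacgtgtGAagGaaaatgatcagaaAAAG

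The mean level of the 300 ranged over 1.57 to 622 FPKM with a median of 4.8. Only 15 lay above an FPKM of 100 and 93 above 10. The last genes inside the limit were AC104066.1, RPL29P11 and AP004245.1, with mean FPKM of 1.59, 1.58 and 1.57, and the next below it were UBE2D3P1, MSNP1 and AC084824.1, with 1.57, 1.56 and 1.56. Many of the 300 rested on few reads: the sum over the 3 libraries ranged over 7 to 15295 reads with a median of 131, and 74 had fewer than 50. Reads were present in all libraries for 286 of them, while 4 had 0 reads in the K80R, 6 in the wild-type and 7 in the empty vector library. At the median length of 527 bases a few reads make an FPKM near the limit, and 3 reads on a gene of 500 bases are worth 0.45 FPKM in the K80R, 0.435 in the wild-type and 0.378 in the empty vector library. Ranked within a library, 201 of the 300 were among the top 300 of every library and 65 of 2 libraries. The other 34 entered through 1 library alone, 5 of them through the K80R, 9 through the wild-type and 20 through the empty vector library, so a difference in that direction comes with the choice of these genes.

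All 22 autosomes held copies, most of all chromosome 1 with 36, chromosome 3 with 24 and chromosome 2 with 22. The annotation gave 1 exon for 287 of the 300 and 2 exons for 13. Their share of all reads was 0.291% in the K80R, 0.364% in the wild-type and 0.425% in the empty vector library. The other 9048 autosomal processed pseudogenes together had 0.0483% of reads in the K80R, 0.0356% in the wild-type and 0.0401% in the empty vector library. More of these low genes had any read in the overexpression libraries, 1445 in the K80R and 1236 in the wild-type library, against 712 in the empty vector library. The same holds for all genes, as the counts of genes with reads above show. Low counts are scarce in the empty vector library, however. Exactly 1 read was found on 350 genes there, against 2902 in the K80R and 2705 in the wild-type library. Numbers of genes with any read are therefore not directly comparable between the libraries.

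Ribosomal protein genes were the parents of most of the highest copies. The parent was taken from the name where it shows one (RPS28P7 for RPS28), which gave 185 parents, and in a second way as the closest protein-coding transcript by alignment, which gave 294. The 2 ways named the same gene for 184 of the 185, the exception being EIF5AP4, whose closest transcript was that of EIF5AL1. By alignment 98 of the 300 (32.7%) were copies of 53 ribosomal protein genes, and these made up 54 of the 93 above an FPKM of 10. They held 53.3% of the reads of the 300 in the K80R, 57.7% in the wild-type and 52.6% in the empty vector library. The groups of parents were set by short lists of gene symbols and of starts of symbols, so they do not hold every protein of a kind. RNA-binding and splicing proteins had 18 copies, mitochondrial proteins 17, chromatin proteins and histone chaperones 12, chaperones 9, the cytoskeleton 7, translation elongation factors 4, glycolysis 4 and iron storage 2. Another 123 copies had parents in none of these lists, among them PHB, the gene of the mitochondrial protein prohibitin. Of the 300, 6 aligned to no protein-coding transcript.

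**Figure D1:**
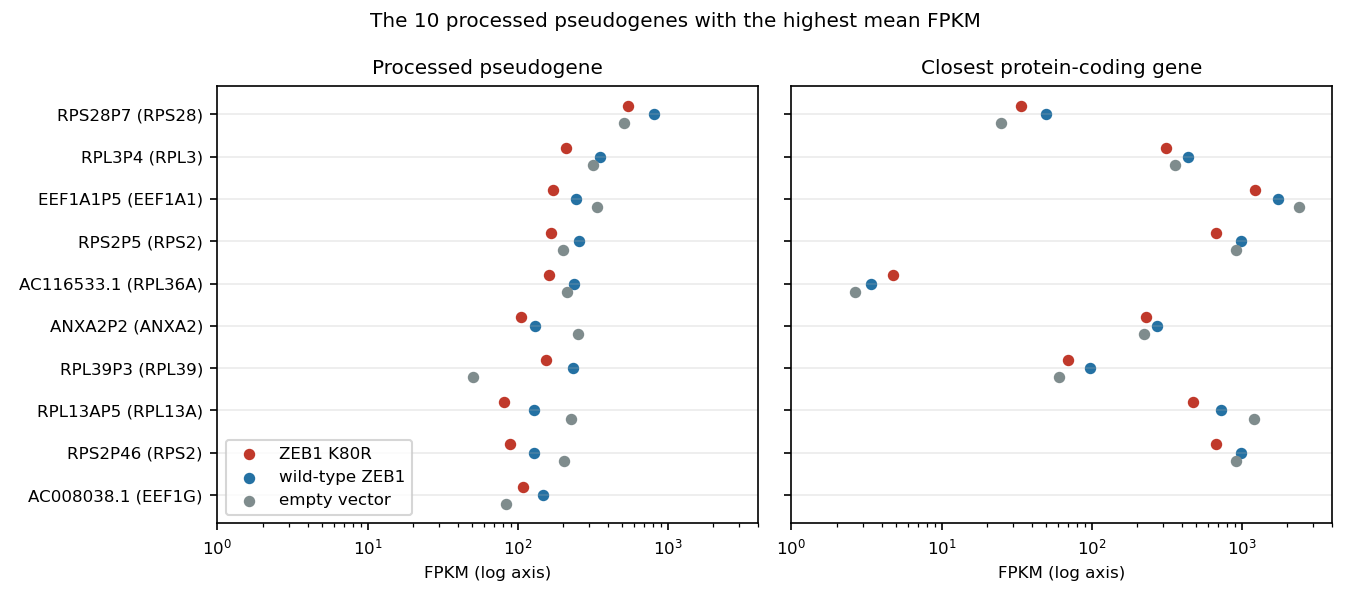
FPKM on a log axis for the 10 processed pseudogenes with the highest mean level (left) and for their closest protein-coding genes (right), with 1 point per library and the parent in brackets. RPS28P7 and AC116533.1 lay above their parents in every library, and AC008038.1 has no points at right because EEF1G had 0 reads.

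The 10 highest copies took 35.4% of the reads of the 300 in the K80R, 40.1% in the wild-type and 41.8% in the empty vector library. RPS28P7 led with an FPKM of 545 in the K80R, 805 in the wild-type and 515 in the empty vector library. RPS28 itself had 33.9 in the K80R, 49.4 in the wild-type and 24.8 in the empty vector library. In reads the distance was smaller, with 1525 in the K80R, 2332 in the wild-type and 1718 in the empty vector library on RPS28P7, against 957 in the K80R, 1444 in the wild-type and 835 in the empty vector library on RPS28. FPKM divides by the annotated length, which is 210 bases for the copy and 2119 for RPS28, so a level of a copy set beside that of its parent depends on both lengths. All 294 copies with an aligned parent are shorter than that parent, with a median of 527 bases, against 3519 for the parents.

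Next came RPL3P4, a copy of RPL3 of the large subunit, with an FPKM of 210 in the K80R, 352 in the wild-type and 318 in the empty vector library. EEF1A1P5 copies EEF1A1, the factor that brings aminoacyl-tRNA to the ribosome, and had an FPKM of 171 in the K80R, 244 in the wild-type and 338 in the empty vector library. It stood at 14% of the level of EEF1A1 in the K80R and at 13.9% in both the wild-type and the empty vector library, so the ratio of copy to parent was nearly constant. ANXA2P2, a copy of the gene of the membrane-binding protein annexin A2, had an FPKM of 105 in the K80R, 131 in the wild-type and 251 in the empty vector library. Its share of the ANXA2 level was 45.7% in the K80R and 48.3% in the wild-type library, against 113% in the empty vector library. Of the remaining 6, RPS2P5, RPS2P46, RPL39P3, RPL13AP5 and AC116533.1 have parents in the ribosome, and AC008038.1 is a copy of EEF1G, a subunit of the elongation factor 1 complex. The plot of the 10 highest copies shows their levels beside those of the parents.

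Copies with high levels were close to their parents in sequence. The identity to the closest protein-coding transcript had a median of 98.0% over the 300 and ranged over 64.7% to 100%. Of the 300, 79 had an identity of at least 99%, 225 of at least 95%, and 45 were below 90%. An identity of 100% was found for 22, for 20 of them over their whole length. Most copies lie in the coding part of the parent, with 264 aligned to it throughout. Of the 93 above an FPKM of 10, 90 could be aligned, with a median identity of 99.1% and none below 95.5%. The 204 aligned copies with a lower level had a median of 97.1%. Among 1934 aligned processed pseudogenes with reads below rank 300 the median was 90.3%, and among 6836 with no reads it was 86.2%. A high identity went with reads but did not ensure them. Of the 171 autosomal processed pseudogenes with at least 99% identity 58 had no read, against 7075 of all 9348. The identity was not used by the rule, but the assignment of reads depends on it, and the sources used here do not say how reads that match several places were treated.

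**Figure D2:**
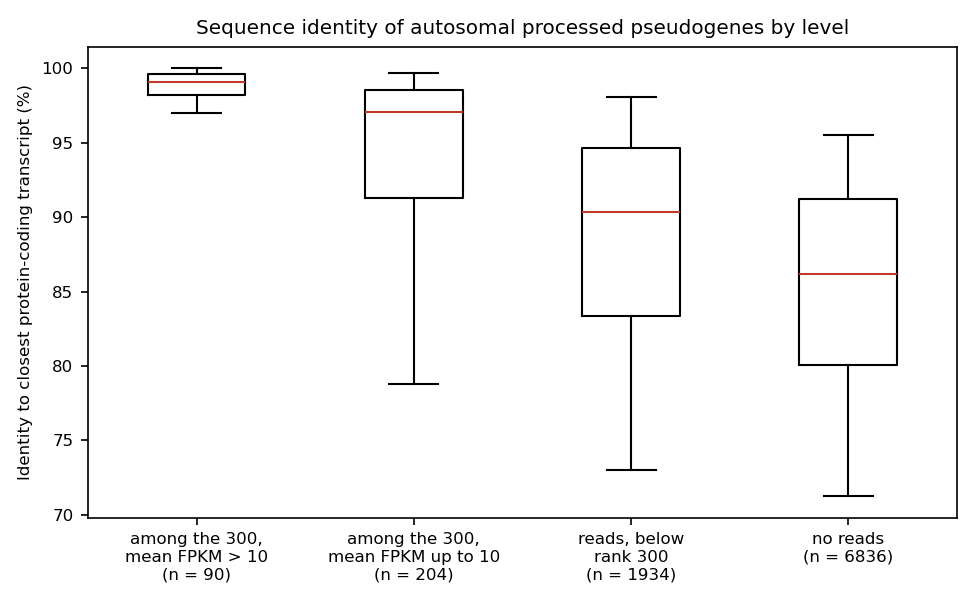
Identity in percent to the closest protein-coding transcript for autosomal processed pseudogenes in 4 classes of level, with medians as red lines, boxes over the middle 50% and whiskers over the 5th to 95th percentile. The medians are 99.1% and 97.1% within the 300, 90.3% for lower genes with reads and 86.2% for genes with none.

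Short stretches of the 300 were often not their own. Over all stretches of 50 bases in a copy, the share that occurs exactly in a transcript of another gene had a median of 51.3%. It was 100% for 24 copies and 0% for 31. For the 100 copies with the highest level the median was 68.5%, against 37.0% for the other 200. With stretches of 100 bases the median over the 300 was 20.3%, 17 copies were shared throughout and 77 not at all. RPS28P7 and RPL39P3 belong to those with no stretch of 50 bases of their own, as do AC116533.1 (RPL36A), RPL21P16 (RPL21), RPL41P1 (RPL41) and AC022149.1, a copy of the gene of the integrin beta 1 subunit (ITGB1). The levels of these genes therefore depend on the treatment of reads that match more than 1 gene.

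Many of the 300 lie within other genes. The coordinates of 191 overlap another gene of the table, for 145 of them a protein-coding gene and for 68 a gene on the same strand, and 109 overlap none. Exonic bases are shared by 22. The overlapping gene had the higher mean FPKM in 65 cases, and in 48 it reached an FPKM of 10. The sources used here do not give the strand setting of the counting, so reads of an overlapping gene on either strand and reads of the copy cannot be told apart in those cases. An example is AC008038.1, which lies in CHCHD3, the gene of a mitochondrial inner membrane protein, on the same strand. CHCHD3 had an FPKM of 14.1 in the K80R, 17.4 in the wild-type and 22.7 in the empty vector library, while the copy had 109 in the K80R, 148 in the wild-type and 83.9 in the empty vector library.

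Most copies stood well below their parents. Over the 185 copies with a parent by name, the copy's FPKM was a median of 10.9% of that of the parent in the K80R, 10.4% in the wild-type and 10.2% in the empty vector library. The middle 50% of copies ranged over 2.99% to 42.7% in the K80R, 2.55% to 36.1% in the wild-type and 2.6% to 32.9% in the empty vector library. The copy exceeded its parent for 16 in the K80R, 17 in the wild-type and 20 in the empty vector library. Copies of ribosomal proteins had a median share of 7.08% in the K80R, 7.4% in the wild-type and 10.3% in the empty vector library. By the closest transcript 41 of 294 copies exceeded the parent in the K80R, 41 in the wild-type and 42 in the empty vector library. By the number of reads, which takes no account of length, it was 10 in each library.

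**Figure D3:**
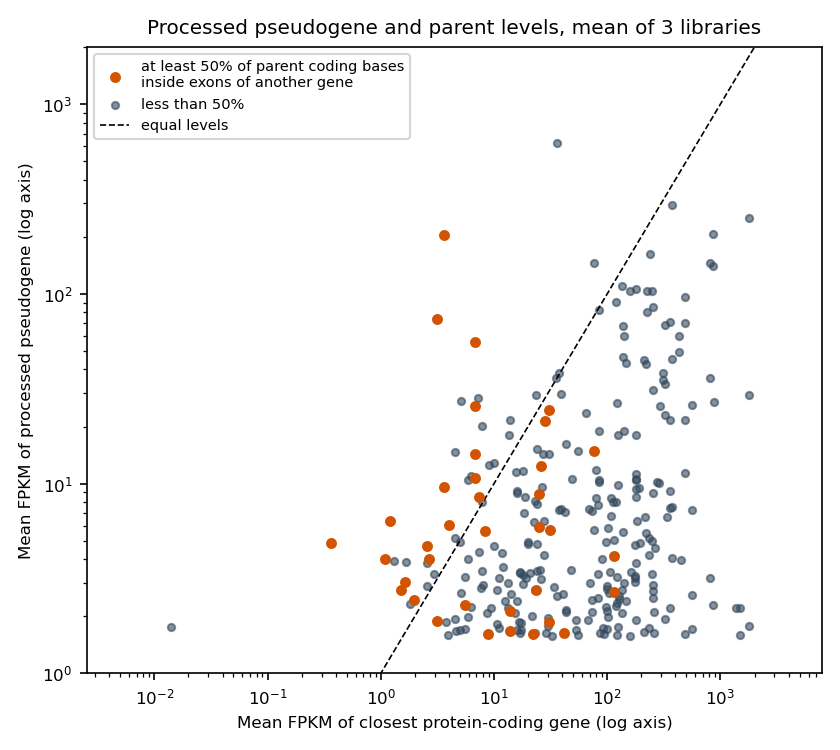
Mean FPKM over the 3 libraries of each processed pseudogene against that of its closest protein-coding gene, both on log axes, for parents with reads, with equal levels as a dashed line. Copies above the line mostly have parents with a mean FPKM under 10, which goes with the low level of most copies. Orange points mark parents whose coding bases lie to at least 50% in exons of another gene.

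Copies above their parent had parents with low values in the table. In all 3 libraries 28 copies of 25 parents exceeded the closest gene in FPKM. Of the 28, 9 also had more reads than the closest gene in every library, 4 of them because that gene had 0 reads throughout, and for the other 19 the order rests on dividing by the longer parent. The median of the mean FPKM over those 25 parents was 3.58, against 43.3 over the 196 parents of the other copies. For 11 of the 25 parents (44.0%) at least 50% of the coding bases lie in exons of another annotated gene, against 21 of the 196 (10.7%). Reads on such shared exons can be left without a gene in counting, and whether this was so here was not tested.

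The clearest cases are copies of ribosomal protein and elongation factor genes. AC116533.1, a copy of RPL36A of the large subunit, had an FPKM of 162 in the K80R, 239 in the wild-type and 214 in the empty vector library. RPL36A had 4.73 in the K80R, 3.38 in the wild-type and 2.64 in the empty vector library, and 78.2% of its coding bases lie in exons of other genes, among them the read-through gene RPL36A-HNRNPH2, which is listed at 0 in all 3 libraries. The identical copy was thus among the 5 highest of the 300 while the parent was low.

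A high copy beside a low parent was also seen for AC008038.1, described above, at rank 10 and with an identity of 99.2%. Its parent EEF1G had 0 reads in every library, and all of its coding bases lie in exons of AP002990.1, which had an FPKM of 0.173 in the K80R, 0.139 in the wild-type and 0.412 in the empty vector library. AC024293.1, a copy of RPS10 of the small subunit, had an FPKM of 66.2 in the K80R, 90.8 in the wild-type and 64.1 in the empty vector library. RPS10 had 3.92 in the K80R, 3.38 in the wild-type and 2.08 in the empty vector library, with 92.1% of its coding bases shared. All 4 copies of RPL17 of the large subunit, whose coding bases are shared to 100%, summed to an FPKM of 114 in the K80R, 117 in the wild-type and 88.9 in the empty vector library, against 6.82 in the K80R, 6.29 in the wild-type and 7.25 in the empty vector library for RPL17. Of these copies only BX679664.3 also had more reads than RPL17 in every library. It had 518 reads in the K80R, 463 in the wild-type and 330 in the empty vector library. RPL17 had 224 in the K80R, 214 in the wild-type and 284 in the empty vector library. The annotated length is 555 bases for BX679664.3 and 2466 for RPL17.

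Outside translation the copies named had more FPKM but not more reads than their parents in every library. GCSHP5 copies GCSH, the carrier protein of the glycine cleavage system, and had an FPKM of 5.61 in the K80R, 4.17 in the wild-type and 9.41 in the empty vector library. GCSH had 0.612 in the K80R, 1.1 in the wild-type and 1.92 in the empty vector library. COX20P1, a copy of a gene for assembly of cytochrome c oxidase, had an FPKM of 3.78 in the K80R, 7.31 in the wild-type and 3.53 in the empty vector library, and rested on 74 reads in all. COX20, whose coding bases lie to 88.1% in exons of other genes, was below an FPKM of 1 in each library. CDC42P6, a copy of the gene of the small GTPase CDC42, had an FPKM of 4.82 in the K80R, 5.03 in the wild-type and 2.19 in the empty vector library, against 0.772 in the K80R, 1.33 in the wild-type and 1.15 in the empty vector library for CDC42.

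Not every copy above its parent has such a parent. RPS28 shares no coding base with an exon of another gene. EIF4EP2, a copy of the gene of the cap-binding protein EIF4E, which shares none either, had an FPKM of 12.1 in the K80R, 9.31 in the wild-type and 22.4 in the empty vector library. EIF4E had 4.22 in the K80R, 4.08 in the wild-type and 5.33 in the empty vector library. It had more reads than the copy, however, with 105 in the K80R, 84 in the wild-type and 233 in the empty vector library on EIF4EP2, against 790 in the K80R, 792 in the wild-type and 1192 in the empty vector library on EIF4E.

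Some parents had several copies among the 300. There were 50 parents with at least 2 copies, which together made 125 of the 300, and 18 with at least 3, which made 61. RPL21 had the most, 5 of the 144 autosomal processed pseudogenes closest to it, of which 109 had no read. PPIA, the gene of the peptidyl-prolyl isomerase cyclophilin A, and RPL17, RPL41, RPL7A and RPSA had 4 each.

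In some families the higher copies stood in the same order of libraries as the parent, and copies with few reads did not always do so. RPL21 had an FPKM of 118 in the K80R, 154 in the wild-type and 270 in the empty vector library. RPL21P16, identical to its coding sequence, had 57.7 in the K80R, 90.5 in the wild-type and 170 in the empty vector library. RPL21P75 and RPL21P28 likewise had their highest value in the empty vector library, at 29.5 and 13.0 FPKM. RPL21P10 and AC132942.1 were also highest there but had more in the K80R than in the wild-type library, with 23 reads in the K80R and 6 in the wild-type library for RPL21P10, and 12 in the K80R and 9 in the wild-type library for AC132942.1. EEF1A1P6 had an FPKM of 18.3 in the K80R, 25.1 in the wild-type and 44.4 in the empty vector library, the order of EEF1A1, which had 1228 in the K80R, 1747 in the wild-type and 2426 in the empty vector library. RPL13AP5 had an FPKM of 80.6 in the K80R, 129 in the wild-type and 226 in the empty vector library, beside 476 in the K80R, 728 in the wild-type and 1204 in the empty vector library for its parent RPL13A of the large subunit. RPL13AP20 left this order, with an FPKM of 2.34 in the K80R, 5 in the wild-type and 2.27 in the empty vector library.

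In other families the higher copies were high in the overexpression libraries. RPS27 of the small subunit had an FPKM of 148 in the K80R, 210 in the wild-type and 59.5 in the empty vector library. Its copy AC005912.1 had 69.5 in the K80R, 110 in the wild-type and 23.0 in the empty vector library, and AC099560.2 had 53.0 in the K80R, 69.9 in the wild-type and 17.3 in the empty vector library. RPL10P16 had an FPKM of 62.5 in the K80R, 80.1 in the wild-type and 38.4 in the empty vector library, beside 145 in the K80R, 190 in the wild-type and 91.0 in the empty vector library for RPL10 of the large subunit. RPL10P9 had the same direction, at 22.6 in the K80R, 23.6 in the wild-type and 10.9 in the empty vector library. RPL10P13 had the opposite one, at 2.73 in the K80R, 1.67 in the wild-type and 4.57 in the empty vector library, resting on 11 reads in the K80R, 7 in the wild-type and 22 in the empty vector library.

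Further families split. RPSAP19 and RPSAP12 are copies of RPSA, the laminin receptor and small subunit protein. RPSAP19 had an FPKM of 14.7 in the K80R, 27.2 in the wild-type and 59.2 in the empty vector library, and RPSAP12 had 2.62 in the K80R, 2.78 in the wild-type and 0.425 in the empty vector library. RPSA had 258 in the K80R, 355 in the wild-type and 360 in the empty vector library. RPSAP19 thus kept the parent's order of libraries with wider differences, while RPSAP12, at a low level, was lowest in the empty vector library. All 3 copies of SNRPG, a core protein of spliceosomal particles, were higher in the K80R and wild-type libraries than with the empty vector, while SNRPG had its highest value in the empty vector library. The ratio of K80R to empty vector was 1.42 (0.894 to 2.28) for SNRPGP10, an interval that spans 1. SNRPGP10 had an FPKM of 14.3 in the K80R, 21.3 in the wild-type and 10.1 in the empty vector library, beside 17.2 in the K80R, 24 in the wild-type and 30.6 in the empty vector library for SNRPG.

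The highest copies of the other parents with at least 3 copies stood at very different shares of the parent level. RPS7P1 had an FPKM of 80.5 in the K80R, 97.5 in the wild-type and 70.3 in the empty vector library, almost the level of RPS7 of the small subunit, with 82.9 in the K80R, 97.3 in the wild-type and 71.4 in the empty vector library. RPL41P1 had an FPKM of 64.9 in the K80R, 103 in the wild-type and 120 in the empty vector library, beside 360 in the K80R, 558 in the wild-type and 546 in the empty vector library for RPL41. At only 81 bases it rested on 70 reads in the K80R, 115 in the wild-type and 154 in the empty vector library.

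RPSAP58, the highest copy of RPSA, had an FPKM of 45.3 in the K80R, 63.4 in the wild-type and 96 in the empty vector library. BX679664.3, the highest copy of RPL17, had an FPKM of 70.1 in the K80R, 60.5 in the wild-type and 37.4 in the empty vector library, against 6.82 in the K80R, 6.29 in the wild-type and 7.25 in the empty vector library for RPL17. BX679664.3 stood above its parent in every library, and RPSAP58 below it.

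PPIAP22 had an FPKM of 24.1 in the K80R, 34.6 in the wild-type and 34.3 in the empty vector library, beside 222 in the K80R, 296 in the wild-type and 244 in the empty vector library for PPIA. RPL7AP6 had an FPKM of 18.1 in the K80R, 20.7 in the wild-type and 39.2 in the empty vector library, beside 388 in the K80R, 545 in the wild-type and 753 in the empty vector library for RPL7A. Both parents were thus many times higher than these copies. RPL24P8 had an FPKM of 11.2 in the K80R, 16.2 in the wild-type and 26.7 in the empty vector library, beside 101 in the K80R, 135 in the wild-type and 138 in the empty vector library for RPL24 of the large subunit. AC093724.1 copies TOMM40, the gene of the import channel of the outer mitochondrial membrane, and had an FPKM of 7.31 in the K80R, 7.41 in the wild-type and 9.56 in the empty vector library, beside 23.1 in the K80R, 21.1 in the wild-type and 25.2 in the empty vector library for TOMM40. HNRNPA1P10, a copy of the gene of a splicing factor, had nearly the same FPKM everywhere, at 5.07 in the K80R, 4.97 in the wild-type and 5.37 in the empty vector library, while HNRNPA1 had 203 in the K80R, 211 in the wild-type and 287 in the empty vector library. PTMAP2 had an FPKM of 2.07 in the K80R, 1.33 in the wild-type and 6.35 in the empty vector library, beside 131 in the K80R, 151 in the wild-type and 244 in the empty vector library for PTMA, the gene of prothymosin alpha.

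Comparing K80R with wild type, few copies differed by a factor of 2. The difference was taken as that of log2(FPKM + 1), a scale that understates the differences of low genes. By this measure 13 of the 300 (4.33%) stood at least 2-fold higher, and 7 (2.33%) 2-fold or more lower, in the K80R than in the wild-type library. Among all 11116 genes with a mean FPKM at least as high as that of the lowest of the 300, 1.21% were higher and 1.03% lower. Of the 201 copies in the top 300 of every library, 3 were higher and 4 lower. The counting interval of the ratio lay above 1 for 31 copies and below 1 for 81, and in the background these were 25% and 32.0% of genes. The median log2 difference was −0.10 over the 300 and −0.03 over all genes compared.

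TCEA1P2 had the largest difference of log2(FPKM + 1) towards K80R among copies with at least 50 reads. It copies TCEA1, the gene of a transcription elongation factor, and had an FPKM of 22.3 in the K80R, 7.92 in the wild-type and 12.8 in the empty vector library. Its ratio of K80R over wild type came to 2.81 (2.23 to 3.58). TCEA1 had 18.1 in the K80R and 24.5 in the wild-type library, and GOLGA4, in which the copy lies on the same strand, had 12.5 in the K80R and 11.7 in the wild-type library. Neither the parent nor the surrounding gene thus stood apart as the copy did. TATDN2P2 had an FPKM of 3.61 in the K80R, 0.814 in the wild-type and 2.49 in the empty vector library, resting on 107 reads in the K80R, 25 in the wild-type and 88 in the empty vector library. PHBP9 copies the gene of prohibitin of the mitochondrial inner membrane and had an FPKM of 4.73 in the K80R and 1.49 in the wild-type library, against 0 reads in the empty vector library. No bound is put on its ratio to the empty vector library, because low counts are scarce there. Exactly 1 read was found on 2902 genes in the K80R and 2705 in the wild-type library, against 350 in the empty vector library, where 404 genes had 5 reads, so a 0 in that library may not be a counted 0. RNASEH1P1, a copy of the gene of the nuclease for RNA in RNA-DNA hybrids, had an FPKM of 5.46 in the K80R and 2.05 in the wild-type library. RPL21P10, whose diverged sequence is given above, had 23 reads in the K80R and 6 in the wild-type library.

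Lower in K80R than in wild type were AP001000.1, RPS3AP26 and HNRNPKP4 among others. AP001000.1 is a copy of the gene of the co-chaperone DNAJB6 and had an FPKM of 3.84 in the K80R, 11.1 in the wild-type and 19.5 in the empty vector library. This is a K80R to wild-type ratio of 0.345 (0.233 to 0.502), while DNAJB6 had 15.7 in the K80R and 14.3 in the wild-type library. RPS3AP26, a copy of RPS3A of the small subunit, had an FPKM of 16 in the K80R and 34.4 in the wild-type library, a ratio of 0.465 (0.385 to 0.56), beside 197 in the K80R and 279 in the wild-type library for RPS3A. HNRNPKP4, a copy of the gene of an RNA-binding protein, had an FPKM of 1.57 in the K80R, 4.65 in the wild-type and 0.59 in the empty vector library, so it was highest in the wild-type library. PTGES3P1, a copy of the gene of the co-chaperone p23, had an FPKM of 3.89 in the K80R and 9.45 in the wild-type library.

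Copies of ribosomal proteins were lower in K80R than in wild type, as their parents were. The median log2 difference was −0.36 over the 98 copies, of which 74 were below 0 and 23 above. Over the 53 parents it was −0.47, with 49 below 0. The counting interval lay below 1 for 42 of the 98 copies (42.9%) and above 1 for 7 (7.14%). Of all 11116 genes compared, 3555 (32.0%) had an interval below 1 and 2774 above 1. The log2 difference lay below 0 for 5999 of these genes and above 0 for 5098, so part of this direction was general. RPL3P4 had a ratio of K80R to wild type of 0.596 (0.555 to 0.641), RPS2P5 of 0.659 (0.622 to 0.697) and RPS28P7 of 0.677 (0.634 to 0.723). RPL3 had a ratio of 0.716 (0.703 to 0.729), RPS2 of 0.678 (0.667 to 0.69) and RPS28 of 0.686 (0.632 to 0.745). Over the 196 copies of other parents the median was 0.02, against −0.19 over their 166 parents. AL450405.1 went the other way from most copies of this group, with an FPKM of 163 in the K80R and 128 in the wild-type library, a ratio of 1.27 (1.16 to 1.39), while RPL29 had 168 in the K80R and 252 in the wild-type library.

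The difference between K80R and wild type went with the sequence identity of the copies. Over the 69 copies under 95% identity the median log2 difference was 0.38, with 56 above 0 and 12 below. Over the 146 between 95% and 99% it was −0.18, with 44 above 0 and 102 below. Over the 79 with at least 99% it was −0.34, with 23 above 0 and 55 below. The diverged copies were also the lower ones, with a median mean FPKM of 2.45 and a median of 50 reads, against 12.6 FPKM and 323 reads for those with at least 99% identity. Restricted to copies with at least 50 reads the medians were 0.40 for 36 copies under 95% and −0.39 for 69 with at least 99%. The 3 classes, from low to high identity, held 15, 53 and 30 copies of ribosomal proteins. In the same order the medians were 0.48, −0.37 and −0.46 for these copies, and 0.37, −0.09 and −0.18 for copies of other parents. Among all genes compared, 5098 were above 0 and 5999 below. Wild type against empty vector showed no such order, with medians of −0.09, 0.09 and −0.02 from low to high identity. For K80R against empty vector the medians were 0.03, −0.11 and −0.33.

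Of the 69 diverged copies, 48 overlap another gene and 21 overlap none. An overlapping gene with a mean FPKM of at least 10 was found for 26 of the 69. It was found for 10 of the 146 copies between 95% and 99% identity and for 10 of the 79 with at least 99%. The part of reads of these genes in the difference was not tested. The median difference was 0.46 for the 48, with 41 above 0, and 0.22 for the 21, with 15 above 0. Summed, the 69 had 2014 reads in the K80R, 1350 in the wild-type and 2003 in the empty vector library, while the 79 with at least 99% identity had 20836 in the K80R, 29073 in the wild-type and 33762 in the empty vector library. Annotated sense intronic genes, a class that lies inside introns, took 0.0372% of reads in the K80R, 0.0308% in the wild-type and 0.0446% in the empty vector library, and the other processed pseudogenes had the shares given above, 0.0483% in the K80R and 0.0356% in the wild-type library. The part of these shares in the difference was not tested.

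**Figure D4:**
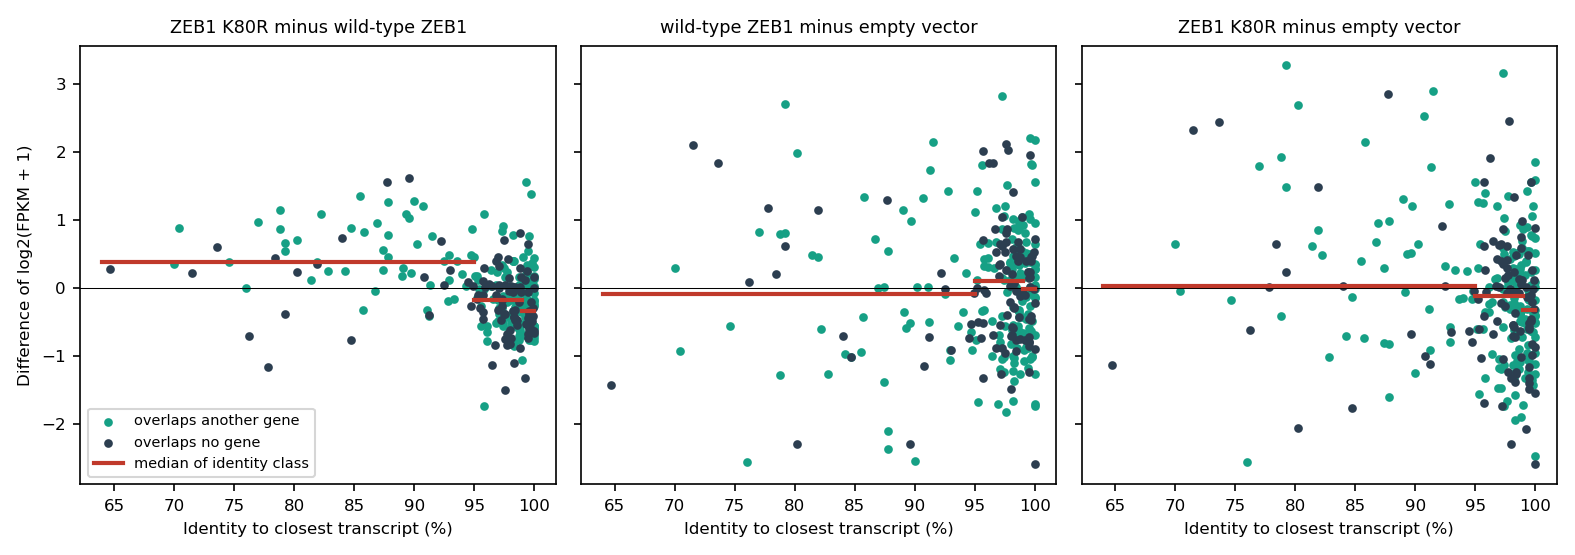
Difference of log2(FPKM + 1) between 2 libraries against the identity of each of 294 copies to its closest transcript, with 1 panel per comparison, green points for copies that overlap another gene, dark points for those that overlap none, and red lines at the medians of 3 identity classes. In K80R minus wild-type ZEB1 the medians are 0.38 under 95%, −0.18 between 95% and 99%, and −0.34 at 99% or more.

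Against the empty vector library, more copies differed by a factor of 2. In the wild-type library 42 copies (14%) stood at least 2-fold higher and another 42 (14%) 2-fold or more lower, while 4.95% of all genes compared were higher and 3.2% lower. Of the 201 copies in the top 300 of every library, 19 were higher (9.45%) and 20 lower (9.95%). The counting interval lay above 1 for 88 copies and below 1 for 93, with 36.7% and 34.9% of all genes. In both comparisons with the empty vector library these intervals may not cover its counting error, because low counts are scarce there. The median log2 difference was 0.00 over the 300 and 0.01 over all genes compared. The copies were thus spread on both sides of 0, more widely than all genes, with the middle 50% between −0.71 and 0.58, against −0.30 and 0.34. Of the 74 copies with fewer than 50 reads 18.9% were higher and 24.3% lower, against 12.4% and 10.6% of the 226 others. The part of counting error in the wider spread was not tested. The balance around 0 depends on the scaling. With the libraries set to a common sum of FPKM, 9.33% of the copies passed the factor of 2 upwards and 29% downwards, with a median of −0.37, beside a shift of all genes by −0.39 on the log2 scale.

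Copies of ribosomal proteins were not more often higher with wild-type ZEB1 than others, since 13 of 98 (13.3%) passed the factor of 2 upwards and 13 downwards, against 26 (13.3%) upwards and 27 downwards of 196 copies of other parents. AL450405.1, the copy of RPL29 shown above, had an FPKM of 163 in the K80R, 128 in the wild-type and 17.3 in the empty vector library. The ratio of wild type to empty vector was 7.43 (6.17 to 9.01), and that of RPL29 was 4.46 (4.24 to 4.7), from 252 in the wild-type and 56.6 in the empty vector library. RPL39P3 had an FPKM of 154 in the K80R, 233 in the wild-type and 50.8 in the empty vector library, a ratio of wild type to empty vector of 4.59 (3.77 to 5.62), against 1.59 (1.5 to 1.68) for RPL39, whose coding sequence is identical. For AC005912.1 the ratio was 4.78 (3.8 to 6.06) and for AC099560.2 4.05 (3.09 to 5.36), beside 3.53 (3.28 to 3.79) for their parent RPS27. AC124864.2, on chromosome 21 and closest to the gene of the corepressor NCOR1, had an FPKM of 38.3 in the K80R, 36.6 in the wild-type and 9.48 in the empty vector library, while NCOR1 had 8.33 in the K80R, 7.32 in the wild-type and 5.84 in the empty vector library.

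Lower with wild-type ZEB1 was AC016739.1, a copy of RPLP1, a protein of the ribosomal stalk. It had an FPKM of 32.6 in the K80R, 58.6 in the wild-type and 165 in the empty vector library, a ratio of wild type to empty vector of 0.355 (0.309 to 0.406). RPLP1 had 205 in the K80R, 290 in the wild-type and 270 in the empty vector library, a ratio of 1.07 (1.05 to 1.1), so the copy was lower where the parent was slightly higher. ANXA2P2 likewise had a ratio of 0.523 (0.494 to 0.552), against 1.23 (1.21 to 1.25) for ANXA2. The common sum of FPKM turns the ratios of both these parents below 1 and leaves those of the copies below 1. RPL7AP66, a copy of RPL7A of the large subunit, had an FPKM of 1.12 in the K80R, 0.905 in the wild-type and 5.74 in the empty vector library, resting on 12 reads in the K80R, 10 in the wild-type and 73 in the empty vector library. AC021106.1, the copy with the lowest identity of all at 64.7% to HNRNPR, had an FPKM of 2.13 in the K80R, 1.58 in the wild-type and 5.89 in the empty vector library.

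Relative to the empty vector library, 37 copies (12.3%) were 2-fold or more higher in the K80R library and 58 (19.3%) 2-fold or more lower, with 4.09% and 4.1% of all genes. Of the 201 copies in the top 300 of every library, 13 were higher (6.47%) and 36 lower (17.9%). The counting interval lay above 1 for 74 copies and below 1 for 101, with 35.4% and 35.8% of all genes. The median log2 difference was −0.12 over the 300. Both comparisons with the empty vector share that library, so they are not independent of each other.

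Among copies with at least 50 reads AL450405.1 had the highest difference of log2(FPKM + 1) towards the overexpression library here too, though not the highest ratio, since the added 1 weighs on low levels. It had a ratio of K80R to empty vector of 9.43 (7.85 to 11.4), against 2.97 (2.81 to 3.14) for RPL29. TECRP1, whose parent TECR works in the elongation of very long fatty acids, had an FPKM of 13.3 in the K80R, 10.6 in the wild-type and 2.97 in the empty vector library. TECR had 20.9 in the K80R, 20.8 in the wild-type and 5.75 in the empty vector library, close to the same ratios. PIGCP1, a copy of a gene of glycosylphosphatidylinositol anchor synthesis, had an FPKM of 4.61 in the K80R, 4.45 in the wild-type and 0.633 in the empty vector library, and PIGC had 6.28 in the K80R, 5.4 in the wild-type and 5.12 in the empty vector library.

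Lower in K80R than in the empty vector library were AC016739.1, with a ratio of 0.198 (0.165 to 0.235), AP001000.1 with 0.197 (0.136 to 0.279) and RPSAP19 with 0.248 (0.209 to 0.292). The ratios of their parents were 0.759 (0.739 to 0.779) for RPLP1, 0.95 (0.906 to 0.996) for DNAJB6 and 0.716 (0.701 to 0.732) for RPSA. UBE2SP1, a copy of the gene of a ubiquitin-conjugating enzyme, had an FPKM of 6.62 in the K80R, 10.7 in the wild-type and 27.2 in the empty vector library, beside 43.9 in the K80R, 61.1 in the wild-type and 59.8 in the empty vector library for UBE2S. RPS20P14, a copy of RPS20 of the small subunit, had an FPKM of 12.9 in the K80R, 18.3 in the wild-type and 45.5 in the empty vector library, beside 183 in the K80R, 256 in the wild-type and 443 in the empty vector library for RPS20. The parent RPS20 thus showed the same order of libraries, while UBE2S did not.

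**Figure D5:**
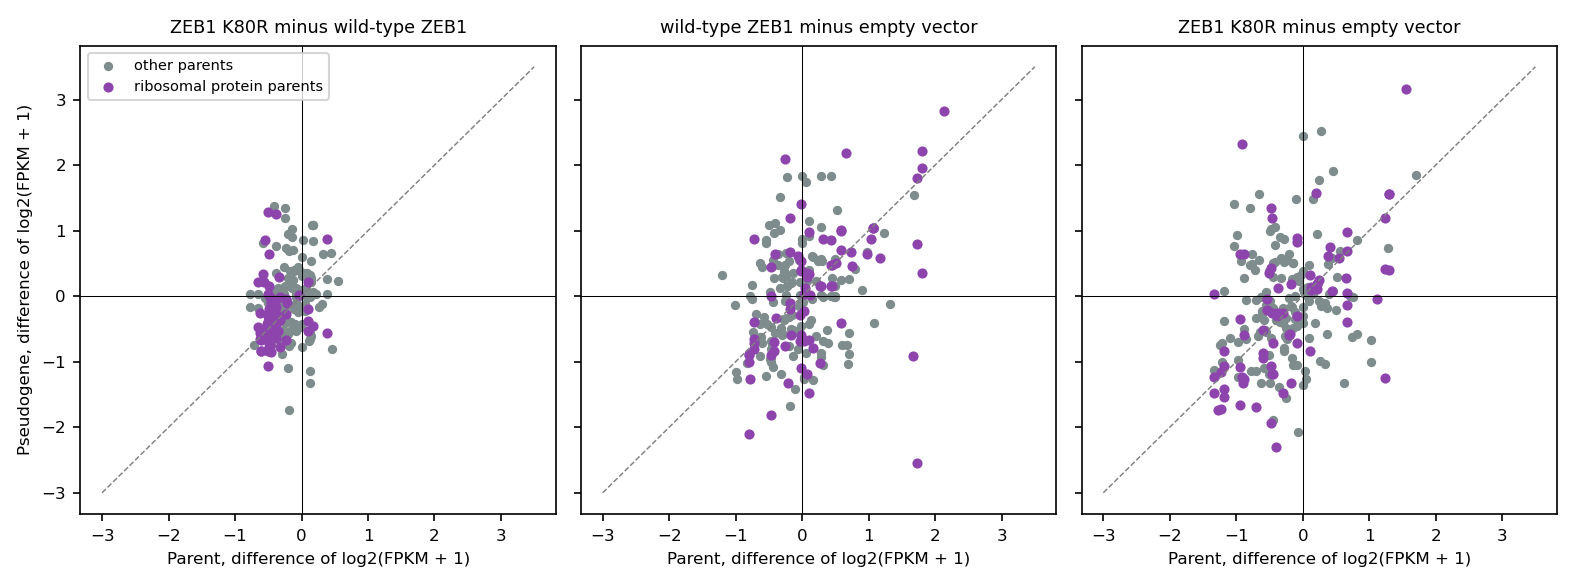
Difference of log2(FPKM + 1) between 2 libraries for each processed pseudogene with at least 50 reads (vertical) and for its closest protein-coding gene (horizontal), with 1 panel per comparison, ribosomal protein parents in purple, other parents in grey and equal differences as a dashed line. Copies scatter widely around the dashed line, most so where the parent differs little.

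Across genes, the differences of well-covered copies went with those of their parents. For the 54 copies with at least 500 reads, Pearson's r between the log2 difference of the copy and that of the parent was 0.39 for K80R against wild type, 0.79 for wild type against empty vector and 0.71 for K80R against empty vector. Over the 221 aligned copies with at least 50 reads the r values were 0.25, 0.36 and 0.35 in the same order of comparisons. Over all 294 aligned copies they were 0.16, 0.27 and 0.24. Copies of 1 parent share that parent and reads can be exchanged between copy and parent, so the points are not independent and no p-value is given.

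The 6 copies without an aligned parent were AC018638.1, AC018638.2, AC018638.4, AC018638.5, AC087258.2 and AC005077.4. The 4 named AC018638 lie next to each other on chromosome 7, between 128651185 and 128654722. AC018638.4 had an FPKM of 14.8 in the K80R, 10.1 in the wild-type and 1.04 in the empty vector library, and AC018638.2 had 19.7 in the K80R, 21.2 in the wild-type and 5.31 in the empty vector library. AC018638.1 went the other way, with an FPKM of 5.69 in the K80R, 6.15 in the wild-type and 38.9 in the empty vector library. Close neighbours were thus on opposite sides of the empty vector library. AC087258.2, the shortest of the 300 at 36 bases, had 7 reads in the empty vector library and 0 in both others, which shows how few reads suffice for a place among the 300 at such a length.

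Among the remaining copies with 0 reads in a library, DNAJC19P5, AC096720.1, Z99129.1 and CYCSP6, a copy of the cytochrome c gene, had 23, 21, 22 and 25 reads in the K80R and 13, 14, 12 and 6 in the wild-type library, against 0 in the empty vector library. AC010598.1 and AC137499.1 had 0 reads in both overexpression libraries, against 8 and 7 in the empty vector library.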

How the data were processed

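RNA sequencing of 3 libraries, 1 per group, was analysed. The authors deposited FPKM values per gene in 1 table with gene names, biotypes, lengths and coordinates. These are fragment numbers divided by the length of the gene and by a size set for the library. In the submitters' processing notes the tools CASAVA, featureCounts (1.5.0-p3) and DESeq2 (version 1.20.0) and the build hg38 are listed, with no role or order. The aligner, the annotation, the strand setting and the treatment of reads that match several genes are not given in the sources used here. Per the labels' protocols, the RNA came from an RNAiso Plus extraction and the libraries from a SMARTER mRNA kit.

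Multiplied by gene length, the FPKM of each library fell on whole steps for 100% of values above 0 (tolerance 0.05 reads), and the number of steps gave the reads used for depth, filters and exact conditional intervals of ratios. This recovery was tested on simulated data. A level at 0 reads may hold up to 3 reads by counting error, except in the empty vector library, where low counts are scarce. Differences are of log2(FPKM + 1), and ratios in the text are of FPKM.

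The 300 genes, the groups of parents and the lists of markers were chosen with earlier results of these data known. A parent was a protein-coding gene whose symbol is the name without its final P and number, or the gene of the best hit of blastn 2.17.0 (word size 11, E-value 1e-10) among the protein-coding transcripts of GENCODE release 29. Identity is that of the best aligned stretch. TPMT, which starts like the tropomyosin genes, was kept out of the cytoskeleton group after the values were seen. Genes named are the 10 with the highest mean, per comparison up to 8 in each direction with the largest difference among those with at least 50 reads in all, the highest copy of parents with at least 3 copies, the 5 highest relative to their parent by name, and 3 on each side of rank 300. Others, among them copies above their closest gene, those without an aligned parent, those with 0 reads in a library and further copies of a family, were chosen after their values were seen. Some of the genes this rule names are not reported here. No sample column of the table was left unused. Python 3.11.15 with pandas 2.3.3, scipy 1.17.1 and matplotlib 3.10.9 was used.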

Additional observations from a re-analysis of the deposited data

How the results depend on the processing

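Scaling the FPKM to a common sum lowered all genes together, by 0.39 and 0.38 on the log2 scale (−0.39 in wild type, −0.38 in K80R, each set against empty vector), and gave 9.33% of the 300 as at least 2-fold higher and 29% lower in wild type than in empty vector, and 10% higher and 30% lower in K80R than in empty vector, with medians of −0.37 and −0.49. Scaling by the median ratio over genes used factors of 0.991 for the K80R, 0.999 for the wild-type and 0.989 for the empty vector library. The deposited values were already close to this scaling, so it gives no independent check, and medians near 0 over all genes come with it. With a pseudocount of 0.1, 8% of the 300 were at least 2-fold higher and 4% lower in K80R than in wild type. With a ratio of at least 1.5, 11.7% were higher and 14.7% lower in K80R than in wild type, 25% and 30.7% in wild type than in empty vector, and 22% and 32% in K80R than in empty vector. Among the 100 highest, 1% were 2-fold higher in K80R than in wild type with a median of −0.41, 9% were lower in wild type than in empty vector, and 7% were higher in K80R than in empty vector with a median of −0.29. Among the 109 that overlap no gene, 1.83% were higher and 4.59% lower in K80R than in wild type with a median of −0.18, and 9.17% were lower in wild type than in empty vector. The cause of these changes was not tested.

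For the share of the parent level, the 100 highest gave medians of 25.3% in K80R, 25% in wild type and 29.3% in empty vector, with 14.5% of copies above the parent in K80R, 16.1% in wild type and 19.4% in empty vector. Copies of ribosomal proteins gave a median of 7.08% in K80R, with 3.28% above the parent in K80R, 4.92% in wild type and 3.28% in empty vector. Those overlapping no gene gave a median of 7.19% in K80R and 2.99% above the parent in both K80R and wild type. The closest transcript as parent, chosen after seeing the data, put 13.9% of copies above it in K80R and in wild type. Of the 84 values computed under an alternative, 36 moved and 48 stayed within the limits set. The median of wild type against empty vector, 0.00 as reported, has no direction of its own and became negative under the common sum.

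No paired analysis was possible because each group had 1 library, and for the same reason none was left out. Depth limits the 74 copies with fewer than 50 reads most, and reads that match a copy and its parent limit those with high identity whatever the depth.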
